A study of Mus musculus with 3 samples.

Results

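Core, linker and variant histone genes encode the proteins that package DNA into chromatin. They were chosen by name, as every gene whose name starts with Hist1h, Hist2h, Hist3h or Hist4h together with 12 named linker and variant genes, and 64 of the 23376 gene names in the tables met that rule. Of these, 52 belong to the histone gene clusters and 12 lie outside them. The libraries came from oocytes of 8-week-old female mice of the outbred ICR strain, and total RNA was extracted with Trizol. There were 3 groups of 1 library each, a control whose exposure label is none, a group labelled low and a group labelled high for PCB118. PCB118 (2,3',4,4',5-pentachlorobiphenyl) is a chlorinated biphenyl with dioxin-like action. Per the series title the exposure took place during pregnancy and the question was how oocytes of the offspring mature. The labels give no amount for either dose, and neither the stage of the oocytes nor the number of oocytes or animals behind a library is given in the sources used here. With 1 library per group no difference has a replicate check, no p-value is given, and each statement describes these libraries.

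The core histones H2A, H2B, H3 and H4 form the nucleosome, and the linker histone H1 binds where DNA enters and leaves it. Clustered histone genes are mostly expressed when DNA is replicated, and their mRNAs usually end in a conserved stem-loop bound by the protein Slbp in place of a poly(A) tail. Variant genes such as H3f3a, H3f3b and H2afz lie alone, carry introns in most cases and give polyadenylated mRNA at any time of the cell cycle. The oocyte stores histone mRNA and protein for the divisions of the embryo and has a linker histone of its own, H1foo. How RNA was selected for the libraries is not given in the sources used here, so levels of clustered genes cannot be set against those of polyadenylated genes as amounts of mRNA.

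The clustered genes were spread over chromosome 13 (45 genes), chromosome 3 (5 genes) and chromosome 11 (2 genes) in the GENCODE M21 annotation of GRCm38 (mm10). The stem-loop was searched in annotated transcripts, on the transcript strand, with the 16-base consensus of the histone stem-loop, whose free positions took any base. It was found in 30 of the 52 clustered genes and in 1 of the 12 others, H2afx, against 46 of 21877 protein-coding genes (0.210%) when the longest transcript of each was searched. These 46 genes include histone genes of the name rule, so they are not a count of other genes. The sequences below stand for the members with the values described later, with the 16 bases of the stem-loop in capitals and 5 bases on either side, 5′ to 3′ in DNA letters.
Hist1h1c: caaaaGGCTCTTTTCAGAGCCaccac
Hist1h2ag: acaaaGGCTCTTTTCAGAGCCaccta
Hist1h2bg: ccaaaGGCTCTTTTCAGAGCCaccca
Hist1h2bj: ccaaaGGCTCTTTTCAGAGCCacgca
Hist3h2ba: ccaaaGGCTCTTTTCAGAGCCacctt
Hist2h3c1: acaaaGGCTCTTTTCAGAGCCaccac
Hist1h4h: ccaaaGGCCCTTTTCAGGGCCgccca
Hist1h4i: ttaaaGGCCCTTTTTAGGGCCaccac
H2afx: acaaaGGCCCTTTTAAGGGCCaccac
The letters set the H4 genes and H2afx apart from the other genes with a match. All 5 H4 genes with a match and H2afx had the stem GGCCC, and the other 25 genes with a match, of the H1, H2A, H2B and H3 classes, had GGCTC. The most common form, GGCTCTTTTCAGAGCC, was found in 21 genes. Among the 52 clustered genes 13 had more than 100 annotated bases after the stem-loop, 17 had at most 100 and 22 had no match, and a missing match says only that these letters are not in the annotated transcript.

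Values are FPKM (fragments scaled for transcript length and sequencing depth), summed over the rows of a gene name, and are given in the order control, low dose, high dose throughout. Histone genes together held 0.950, 0.508 and 0.620% of all FPKM, and without H1foo 0.294, 0.248 and 0.272%. Of the 64 members 38 averaged 1 FPKM or more and are called expressed, namely 27 clustered genes and 11 others. Of the 26 members below that mean, 21 stayed below 1 FPKM in every library and the highest single value was 2.08 FPKM, for Hist1h2ae in control. A further 18 histone genes of the annotation that fit the name rule had no row under their name among the rows used here. They include the testis and oocyte gene Hist1h2ba, Hist2h2be, Hist2h4, Hist3h2a and Hist4h4.

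Every log2 ratio of a single gene compares values of log2(FPKM + 1), so that differences of weakly expressed genes are understated. Log2 ratios of summed FPKM were taken on the sums with nothing added. A gene counted as higher or lower when this ratio reached 1 in either direction, which is a cutoff on size without a test. No ratio is printed for a gene at 0 in either library. A value of 0 may also come from an estimate that failed.

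Linker histones outside the clusters gave the largest total. H1foo, the oocyte linker histone (chromosome 6, 115944938 to 115950236, plus strand, up to 6 exons), was at 2477, 1105 and 1370 FPKM, which ranked it 8th, 20th and 15th among all gene names. It was highest in control, and its log2 ratio to control was -1.16 for the low dose, past the rule, and -0.85 for the high dose. Of its 2 rows 1 held nearly everything (2474, 1104 and 1367 FPKM). None of its 50-base windows occurred in an annotated transcript of another gene, so its reads are not shared with annotated copies. H1f0, the linker histone of cells that have stopped dividing (chromosome 15, 79028450 to 79030504, plus strand, 1 exon), was at 48.5, 1.93 and 33.5 FPKM. The low dose library stood apart from the other 2, with a log2 ratio of -4.08 to control, while the high dose library was at -0.52. H1fx, a linker histone of somatic cells, was at 3.55, 9.44 and 5.75 FPKM and thus highest at the low dose (log2 ratio 1.20). Its exons overlap the opposite-strand gene Gm5577, which was at 32.7, 72.1 and 30.3 FPKM and was also highest there. The strand setting of the counting is not given in the sources used here, so reads of these overlapping genes cannot be told apart.

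**Figure D1:**
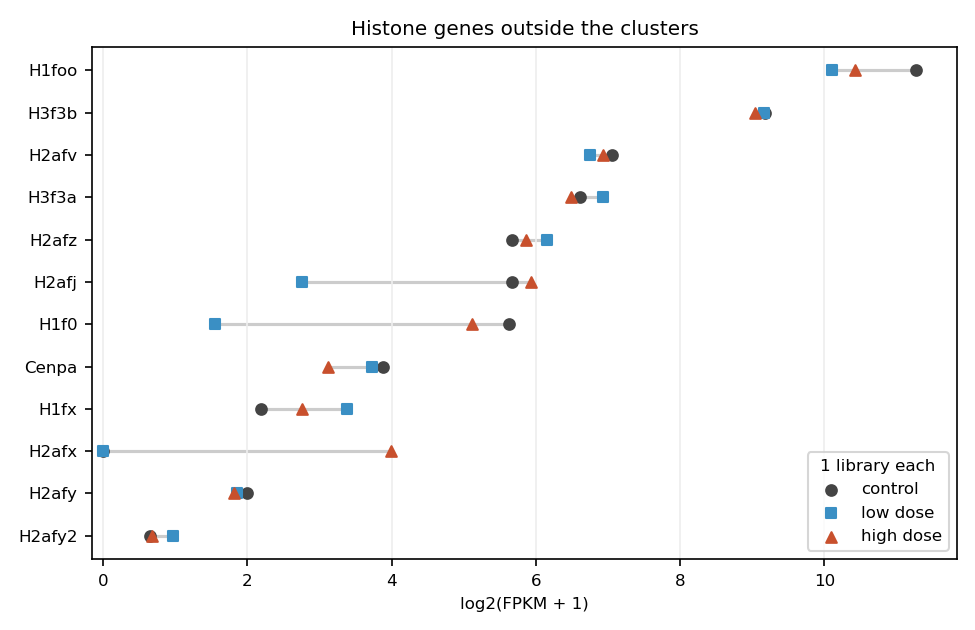
Levels of the 12 histone genes outside the clusters on the log2(FPKM + 1) axis, 1 point per library, ordered by mean, with a grey line from the lowest to the highest library. H1f0 and H2afj sit far lower in the low dose library than in the other 2, H2afx is above 0 in the high dose library alone (control and low dose points coincide at 0), and H3f3b and H2afv stay close together.

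The promoter of H1foo is shown because this gene held most of the histone FPKM in each library. The window reaches from 250 bases before to 50 bases after the RefSeq start on the plus strand of chromosome 6 (GRCm38.p6, chr6:115944681-115944980), and capitals mark the CCAAT boxes that a search on both strands found.
H1foo: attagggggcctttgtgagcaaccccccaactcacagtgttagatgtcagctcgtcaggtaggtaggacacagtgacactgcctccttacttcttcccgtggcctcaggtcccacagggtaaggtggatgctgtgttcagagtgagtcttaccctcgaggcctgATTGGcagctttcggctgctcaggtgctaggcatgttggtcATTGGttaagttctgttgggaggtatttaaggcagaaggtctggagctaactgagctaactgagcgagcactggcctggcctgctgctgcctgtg
It holds 2 CCAAT boxes and neither the octamer ATTTGCAT nor TATAAA.

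H2A variants divided into steady genes and genes that 1 library set apart. H2afv and H2afz, which encode the forms of H2A.Z found at gene promoters, were at 132, 106 and 121 FPKM and at 50.1, 70.5 and 57.3 FPKM. No pair of libraries passed the rule for either gene. H2afy, which encodes macroH2A1, a variant of repressed chromatin, was at 3.0, 2.61 and 2.52 FPKM, and its relative H2afy2 stayed below 1 FPKM. H2afj, a replication-independent H2A (chromosome 6, 136808244 to 136810074, plus strand), was at 49.9, 5.76 and 60.2 FPKM. It was low in the low dose library only, with a log2 ratio to control of -2.91 there and of 0.27 at the high dose. H2afx, whose product is phosphorylated at DNA breaks (chromosome 9, 44334694 to 44336077, plus strand, 1 exon), was taken as 0 in control, listed at 0 at the low dose and at 14.9 FPKM at the high dose. At the estimated depth the value at the high dose stands for about 648 reads.

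H3 variants differed little between libraries. H3f3b, which encodes H3.3, the H3 form laid down outside replication, was at 577, 573 and 526 FPKM. H3f3a, the other H3.3 gene, was at 96.8, 122 and 88.5 FPKM. A second row of H3f3a held 1.24, 25.7 and 2.09 FPKM, and its larger row was at 95.5, 95.9 and 86.4 FPKM, so the excess at the low dose lay in the smaller row. Cenpa, the H3 variant of centromeres, was at 13.7, 12.2 and 7.73 FPKM, lowest at the high dose with a log2 ratio to control of -0.75. None of the 3 passed the rule in any pair of libraries.

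Summed over the 12 genes outside the clusters the FPKM were 3452, 2009 and 2288. The log2 ratio of the sums to control was -0.78 for the low dose and -0.59 for the high dose. Without H1foo the sums were 975, 904 and 918, and the log2 ratios -0.11 and -0.09, so H1foo carried the difference.

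Clustered genes were low, with sums of 133, 150 and 155 FPKM over 52 genes. H2B genes made up 51.5, 65.6 and 75.7% of these sums. Their sum was 68.4, 98.5 and 117 FPKM, against 23.3, 14.7 and 8.46 FPKM for H2A, 17.1, 13.4 and 8.14 FPKM for H3, 16.9, 15.9 and 14.2 FPKM for H4 and 7.12, 7.56 and 6.82 FPKM for H1. The H2A and H3 sums were lowest at the high dose, at -1.46 and -1.07 in log2 ratio to control. The H2A difference lay mainly in Hist1h2ag, Hist1h2ae and Hist1h2ad, at 8.37, 2.08 and 1.87 FPKM in control and at 0 at the high dose. The H3 difference lay mainly in Hist2h3c1 (10.1 FPKM in control and 5.27 at the high dose) and Hist2h3c2 (3.57 and 0). Hist1h2aa, Hist1h2af, Hist1h2ak, Hist1h2ao, Hist2h2ab, Hist1h3d and Hist1h3h were higher at the high dose than in control, each below 1 FPKM. The H2B sum was highest there through a single gene, Hist1h2bc, without which it was 67.8, 97.5 and 54.9 FPKM. Without that gene the sum over the clustered genes was 132, 149 and 92.5 FPKM, so the log2 ratio of the high dose to control was -0.52 in place of 0.22.

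**Figure D2:**
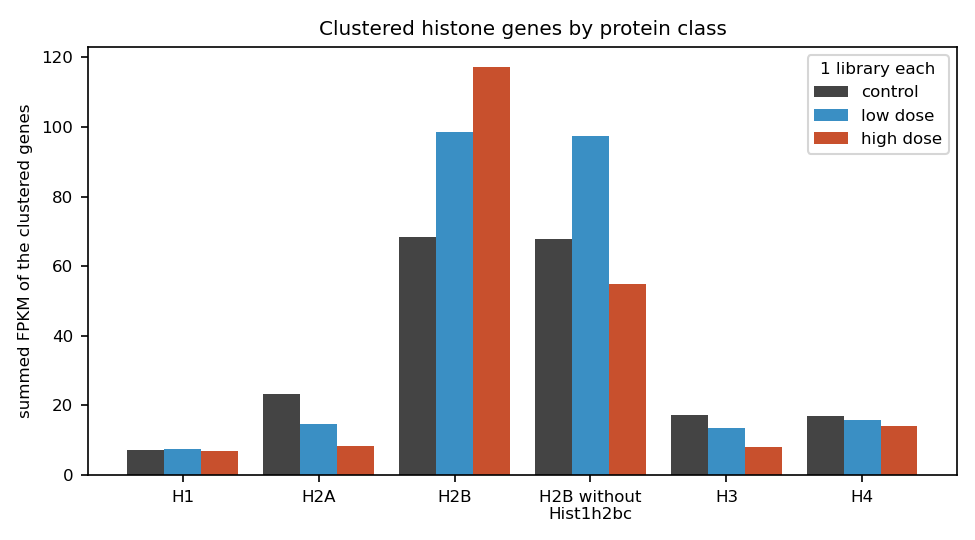
Summed FPKM of the clustered histone genes of each protein class, 1 bar per library, with H2B also drawn without Hist1h2bc. The H2A and H3 bars are lowest at the high dose, and the H2B bar of that library drops from 117 to 54.9 FPKM when Hist1h2bc is left out.

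H2B genes held the highest clustered values. Hist1h2bc (chromosome 13, 23684199 to 23692908, plus strand, 2 exons) was at 0.53, 0.96 and 62.2 FPKM. Only the high dose library was above 1 FPKM, at an estimated 2266 reads against 21 and 31. Its coding sequence of 378 bases without the stop codon differs from that of Hist1h2bj at 4 bases and from that of Hist1h2bg at 5, and 29.4% of the 50-base windows of its transcript occur in other histone genes. Hist3h2ba, a replication-type H2B gene of chromosome 11 (58948920 to 58949533, plus strand), was at 20.6, 27.5 and 24.4 FPKM with no pair past the rule. Hist1h2bg was at 25.5, 21.6 and 12.3 FPKM, lowest at the high dose with a log2 ratio to control of -0.99, just short of the rule. Hist1h2bj was at 3.41, 21.1 and 2.22 FPKM, so that the low dose library alone was high (log2 ratio 2.33 to control). Hist1h2bp was likewise highest at the low dose, at 3.22, 9.02 and 5.94 FPKM (log2 ratio 1.25). Hist1h2bl was at 4.38 and 4.78 FPKM and listed at 0 at the high dose, and Hist1h2bn was listed at 0 in control and at 3.55 and 1.58 FPKM in the exposed libraries. The remaining 4 expressed H2B genes, Hist1h2bb, Hist1h2be, Hist1h2bq and Hist1h2br, lay between 0.96 and 5.01 FPKM and passed the rule in no pair.

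H2A genes were lower and were often missing from 1 library. Hist1h2ag was at 8.37, 5.27 and 0 FPKM and Hist1h2ad at 1.87, 1.72 and 0 FPKM, so both were listed at 0 at the high dose. Hist1h2ac was at 3.18, 0 and 1.26 FPKM and Hist1h2ah at 3.28, 0 and 2.17 FPKM, both listed at 0 at the low dose. Hist1h2ab and Hist1h2an stayed between 1.31 and 2.24 FPKM and passed the rule in no pair. Hist1h2aa, which encodes TH2A, a variant of testis and oocytes, was listed at 0 in control and at 1.85 and 0.76 FPKM in the exposed libraries, below the mean of 1 FPKM.

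H3 and H4 genes were also often at 0 in a library. Hist2h3c1 (chromosome 3, 96246685 to 96248509, plus strand) was the highest clustered H3 gene at 10.1, 9.08 and 5.27 FPKM, with no pair past the rule, although each of its 50-base windows occurs in another annotated transcript. Its relative Hist2h3c2 was at 3.57 and 2.45 FPKM and listed at 0 at the high dose. Hist1h4h (chromosome 13, 23531050 to 23531519, plus strand) was at 7.57, 9.24 and 0.013 FPKM. Its value at the high dose is below the 0.068 FPKM that 1 read would be worth over its transcript, and the other 2 libraries stand for about 123 and 121 reads. Hist1h4i was at 4.37, 0 and 3.61 FPKM, listed at 0 at the low dose, and Hist1h4a was at 6.27 FPKM at the high dose and at 0 in the other 2 libraries. Hist1h4b and Hist1h4k, at 1.61 to 3.47 FPKM, passed the rule in no pair. The clustered linker genes Hist1h1a, Hist1h1c and Hist1h1d lay between 1.52 and 3.06 FPKM and did not pass the rule in any pair either.

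**Figure D3:**
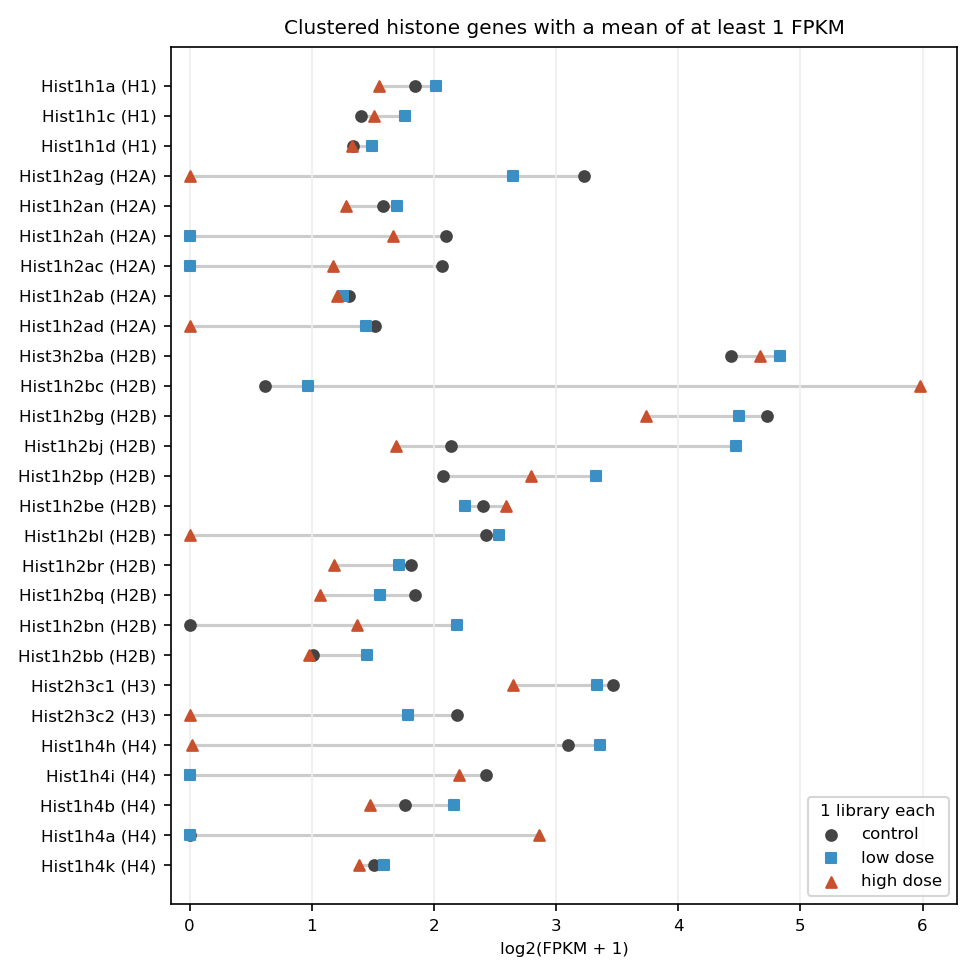
Levels of the 27 expressed clustered histone genes on the log2(FPKM + 1) axis, 1 point per library, grouped by protein class and ordered by mean within it, with a grey line over the range of the 3 libraries. Hist1h2bc reaches 62.2 FPKM at the high dose alone, Hist1h2bj is high at the low dose, and 9 genes have a library at 0.

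Among the 27 expressed clustered genes the high dose library was the lowest of the 3 in 17 (63.0%), against 27.8% of all 12151 expressed genes. After either scaling of the libraries to a common level the count was 16 genes, against 26.7% of all genes under trimmed mean scaling. These genes share sequence, so the count is not one of independent genes. It also takes no account of size. Of the 17 genes, 5 passed the rule against control, each at 0 or below the worth of 1 read at the high dose. The others ranged from -0.002 (Hist1h1d) to -0.99 (Hist1h2bg) in log2 ratio to control. Values at 0 were frequent. Of the 38 expressed histone genes 10 were at 0 in at least 1 library (26.3%), against 300 of all expressed genes (2.47%), and among those with a mean under 5 FPKM it was 10 of 22 against 221 of 5821 (3.80%). In these 10 genes a median of 65.3% of the 50-base windows occurred in transcripts of other genes. For the 18 expressed clustered genes above 0 in every library it was 47.8%. The 10 genes include H2afx, which lies outside the clusters, and the ranges overlap (9.66 to 92.1% against 0 to 100%). Identity was compared only between coding sequences of the same length. It was 89.2 to 100% in 46 pairs of clustered H2B genes and 93.2 to 100% in 36 pairs of H4 genes. Each class had 1 identical pair. How reads that match several copies were shared out is not given in the sources used here, so values of single clustered genes are uncertain, and the part of shared sequence in the differences was not tested.

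Many H2A and H2B genes start back to back and share the sequence between them. There were 8 such pairs with a row for both genes, whose annotated starts lay 176 to 296 bases apart. Partners did not keep the same order of libraries in several pairs. Hist1h2bc was high at the high dose alone, whereas its partner Hist1h2ac was highest in control. Hist1h2bj was high at the low dose, and its partner Hist1h2ag was highest in control. Hist1h2bg was above 12 FPKM in every library, and its partner Hist1h2ae was at 2.08 FPKM in control and had no row in the exposed tables, which counts as 0. In the pair of Hist1h2bl and Hist1h2ai both genes were above 0 in control and at the low dose and both were listed at 0 at the high dose, and in the pair of Hist1h2an and Hist1h2bp the low dose library was highest for both.

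**Figure D4:**
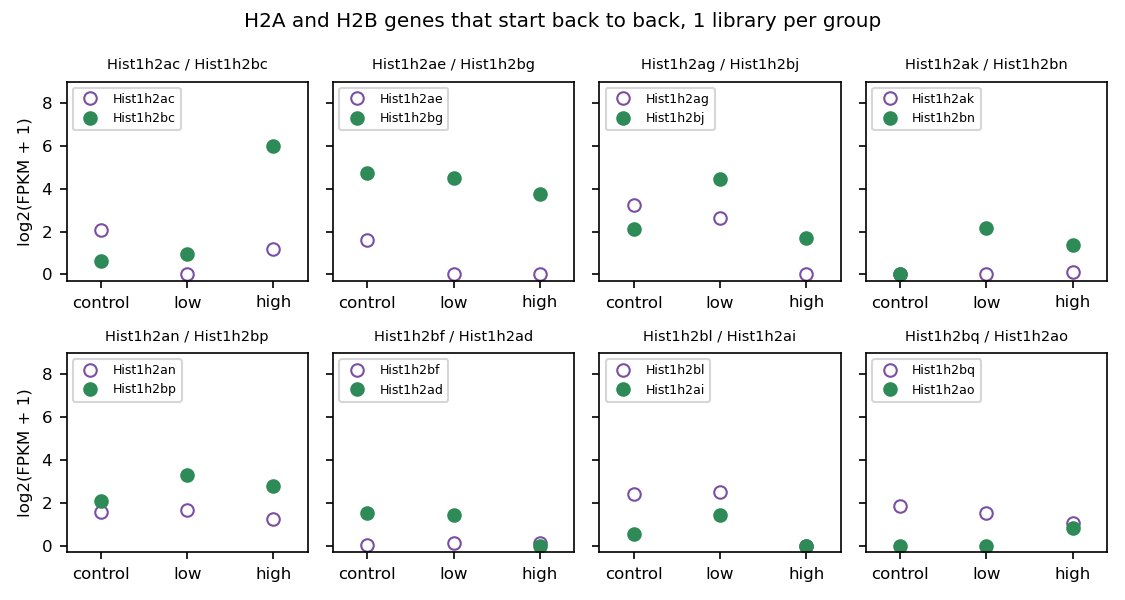
Levels on the log2(FPKM + 1) axis of the 8 pairs of H2A and H2B genes that start back to back, 1 panel per pair and 1 point per gene and library, with open points for the gene on the minus strand. The Hist1h2bc and Hist1h2ac panel and the Hist1h2bj and Hist1h2ag panel show partners that peak in different libraries.

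Promoter windows of 300 bases were found in the RefSeq table for 59 of the 64 members. The window of Hist1h2ac (minus strand, GRCm38.p6, chr13:23683910-23684209), which also covers the sequence up to the start of Hist1h2bc, and that of Hist1h2bg (plus strand, GRCm38.p6, chr13:23571150-23571449), which reaches over the start of Hist1h2ae, are shown because their pairs hold the highest H2B values on chromosome 13. Capitals mark CCAAT, the octamer ATTTGCAT and TATAAA on either strand, with no overlap between matches.
Hist1h2ac: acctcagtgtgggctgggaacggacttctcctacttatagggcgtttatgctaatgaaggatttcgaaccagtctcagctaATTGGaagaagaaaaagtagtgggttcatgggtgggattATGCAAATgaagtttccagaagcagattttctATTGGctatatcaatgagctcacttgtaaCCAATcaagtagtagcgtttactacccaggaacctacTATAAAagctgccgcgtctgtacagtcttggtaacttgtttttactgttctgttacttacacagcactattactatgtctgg
Hist1h2bg: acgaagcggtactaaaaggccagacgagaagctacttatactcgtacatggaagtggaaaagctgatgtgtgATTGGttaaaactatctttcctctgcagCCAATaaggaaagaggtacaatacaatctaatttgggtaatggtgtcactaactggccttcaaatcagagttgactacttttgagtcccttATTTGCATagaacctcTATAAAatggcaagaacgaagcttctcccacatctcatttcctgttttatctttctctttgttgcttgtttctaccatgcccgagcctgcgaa
Each window holds 1 octamer and 1 TATA box, with 3 CCAAT boxes for Hist1h2ac and 2 for Hist1h2bg. CCAAT was found in all 14 windows of clustered H2A genes and all 13 of clustered H2B genes with an entry of that class, against 37.4% of the 32851 promoters in the table. The octamer was found in 6 of the H2A and 4 of the H2B windows, against 1.74% of all promoters, and in none of the 9 H4 windows. TATAAA was found in 7 of the 9 H4 windows against 13.6% of all promoters. Windows of back-to-back genes overlap and are not independent, and a match is a stretch of letters and not a shown site.

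Counts past the rule were set beside those of all expressed genes. In the low dose library against control 4 of 38 histone genes were higher (10.5%), against 14.5% of all genes, and 6 were lower (15.8%), against 5.84%. Higher were H1fx, Hist1h2bj, Hist1h2bn and Hist1h2bp, and lower were H1foo, H1f0, H2afj, Hist1h2ac, Hist1h2ah and Hist1h4i. These 10 genes were 26.3% of the expressed members, against 20.4% of all genes past the rule in either direction, and in 4 of them 1 of the libraries was at 0. Of the lower genes, Hist1h2ac, Hist1h2ah and Hist1h4i were listed at 0 at the low dose. The filter acts on these shares. Without its low dose value Hist1h2bn would average below 1 FPKM, and so would Hist1h2ac without its control value. The median log2 ratio of the histone genes was -0.01, against 0.17 for all expressed genes. Scaling by a trimmed mean or by median ratios moved the median of all genes at the low dose to -0.01 and 0.003.

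In the high dose library against control 4 histone genes were higher (10.5%), against 9.51% of all genes, and 5 were lower (13.2%), against 5.18%. Higher were Hist1h2bc, H2afx, Hist1h4a and Hist1h2bn, and lower were Hist1h2ad, Hist1h2ag, Hist1h2bl, Hist1h4h and Hist2h3c2. These 9 genes were 23.7% of the members, against 14.7% of all genes, and in 7 of them 1 library was at 0, and 3 of the 4 higher genes (Hist1h2bc, H2afx and Hist1h4a) reached 1 FPKM in the high dose library alone and so were counted as expressed only because of it. Of the lower genes, Hist1h4h was at 0.013 FPKM at the high dose, below the 0.068 FPKM of 1 read, and the others were listed at 0 there. Without its control value Hist1h2ad would average below 1 FPKM. The median log2 ratio of the histone genes was -0.20, against 0.08 for all genes. Both comparisons used the same control library.

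Between the exposed libraries 8 histone genes were higher at the high dose (21.1%), against 6.1% of all genes, and 6 were lower (15.8%), against 9.73%. Again 3 of the 8 higher genes, Hist1h2bc, H2afx and Hist1h4a, were counted as expressed only through the high dose library, so the share of higher genes is raised by the filter itself. Without its low dose value the lower gene Hist1h2ad would average below 1 FPKM. The higher genes included H1f0 and H2afj, with log2 ratios of 3.56 and 3.18, whose high dose values were not past the rule against control, and Hist1h2bc (5.01). The lower genes included Hist1h4h (-3.34) and Hist1h2bj (-2.78). Together they were 36.8% of the members, against 15.8% of all genes. In 9 of these 14 genes 1 library was at 0, and the median log2 ratio was -0.36, against -0.07 for all genes. Among the 16 histone genes that averaged 5 FPKM or more the rule was passed by 6 at the low dose against control (37.5%), 2 at the high dose (12.5%) and 5 between the doses (31.2%), against 21.2, 15.6 and 15.0% of all genes at that level. Here too the filter acts on the shares. Hist1h2bc and Hist1h2bj reached 5 FPKM in 1 library alone, the high dose and the low dose library, and were in this set only because of it. H1fx and Hist1h2bp would also average below 5 FPKM without their low dose values, and Hist1h4h without its control or its low dose value. These 16 genes are few, and no statement on histone genes as a class rests on these shares.

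**Figure D5:**
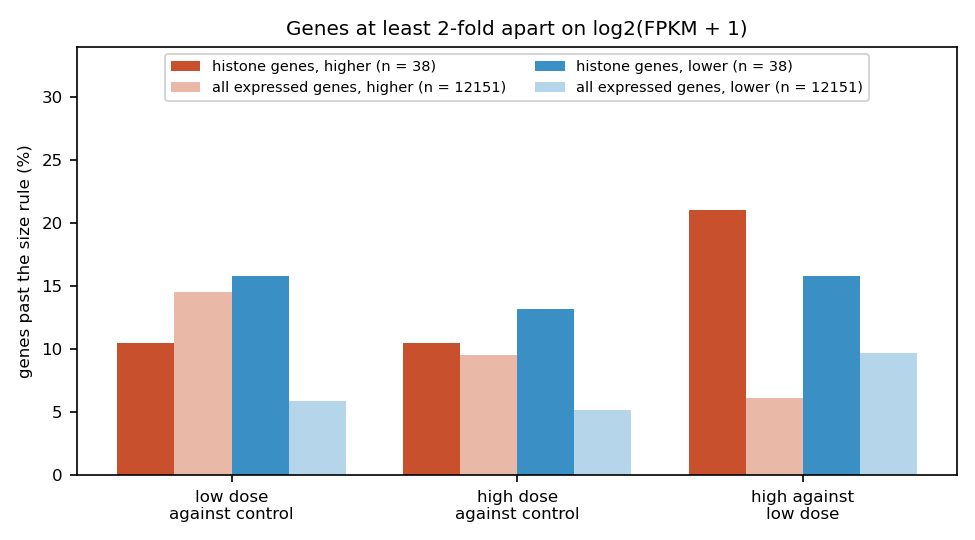
Share of the 38 expressed histone genes and of all 12151 expressed genes that were past the cutoff of 1 in log2 ratio, upward or downward, for the 3 pairs of libraries. Lower genes make up 15.8 and 13.2% of histone genes against 5.84 and 5.18% of all genes in the comparisons with control. Of these, Hist1h2ac, Hist1h2ah and Hist1h4i were listed at 0 at the low dose. At the high dose every lower gene was listed at 0 or, for Hist1h4h, below the worth of 1 read.

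Genes that supply and handle histones were read from lists. For histone mRNA transcription and 3′ end processing, 12 of the 17 listed names were expressed, and the name Mizf had no row. The low dose library was higher than control for 4 of them and lower for 0, the high dose library higher for 2 and lower for 0, with median log2 ratios of 0.48 and 0.37. Among all expressed genes 14.5 and 9.51% were higher, 5.84 and 5.18% were lower, and the medians were 0.17 and 0.08. Slbp, which binds the stem-loop, was at 131, 198 and 232 FPKM, lowest in control but not past the rule. Lsm10, a subunit of the U7 particle that guides the cut behind the stem-loop, was at 30.9, 268 and 27.01 FPKM (log2 ratio 3.07 at the low dose). Npat, the coactivator of clustered histone genes, was at 2.10, 5.52 and 3.64 FPKM (log2 ratio 1.07 at the low dose). Ncbp2, of the cap-binding complex, was at 15.0, 37.7 and 41.2 FPKM (1.27 and 1.40). Upf1, a helicase that acts in histone mRNA decay, was at 24.3, 52.5 and 52.9 FPKM (1.08 and 1.09). Zfp473, a U7-associated zinc finger protein, was at 0.63, 1.25 and 1.48 FPKM and passed the rule in no pair. Srrt, which links the cap to 3′ end processing, was at 2.02, 3.15 and 2.43 FPKM, and Lsm11, the other subunit specific to the U7 particle, at 1.85, 1.59 and 2.08 FPKM, neither past the rule.

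Of 38 listed chaperones and exchange factors 35 were expressed, with 2 higher and 1 lower at the low dose and 2 higher and 2 lower at the high dose. Their median log2 ratios were 0.27 and 0.04, against 0.17 and 0.08 for all expressed genes, of which 14.5 and 9.51% were higher and 5.84 and 5.18% lower. Nap1l4, a chaperone of H2A and H2B, was at 53.6, 204 and 108 FPKM (log2 ratios 1.91 and 1.00). Atrx, which deposits H3.3 with Daxx, was at 37.6, 111 and 73.2 FPKM (1.54 and 0.94). Asf1b, a chaperone of H3 and H4, was at 84.1, 40.1 and 58.4 FPKM (-1.05 and -0.52). Supt16, the large subunit of the FACT complex, was at 26.04, 45.6 and 8.83 FPKM, lowest at the high dose (-1.46). Set, another chaperone, was at 2.47, 3.87 and 14.4 FPKM (2.15 at the high dose), and Spty2d1, which binds H3 and H4, was at 8.96, 12.1 and 3.66 FPKM (-1.09 at the high dose). Npm2, the nucleoplasmin of eggs, was at 523, 477 and 370 FPKM with no pair past the rule, a gene named after its values were seen.

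Markers of cell types were read beside these values. All 10 oocyte markers were above 1 FPKM in every library, with sums of 9271, 7437 and 8676 FPKM, yet 3 of them passed the rule against control. Gdf9, a growth factor secreted by the oocyte, was at 661, 38.5 and 193 FPKM (log2 ratios -4.06 and -1.77), so it was lowest in the low dose library, as were H1foo, H1f0 and H2afj. Bmp15, its relative, was at 4.27, 18.7 and 15.8 FPKM (1.90 and 1.67), and Figla, an oocyte transcription factor, was at 95.8, 73.4 and 41.8 FPKM (-0.38 and -1.18). Of 15 granulosa and cumulus markers 11 had a row and 4 were expressed (Fshr, Inha, Cyp19a1 and Nr5a2). The sums were 24.7, 27.6 and 24.3 FPKM, most of it from Nr5a2 at 17.0, 13.2 and 10.6 FPKM. Fshr was at 5.61, 9.95 and 9.05 FPKM and Cyp19a1 at 1.42, 1.32 and 2.22 FPKM. Median log2 ratios of these 4 to control were 0.33 and 0.48, against 0.17 and 0.08 for all expressed genes, so the near-equal sums do not show equal markers. Inha, the inhibin alpha subunit, was the 1 of these 4 past the rule, at 0.38, 2.55 and 1.03 FPKM (log2 ratio 1.36 for the low dose). Has2 was at 0 in control and at the low dose, and Amh and Foxl2 had no row among the rows used here. The 5 markers of theca and stroma with a row stayed below 1 FPKM, as did Cd68, the only one of 7 blood and immune markers with a row. All 10 genes of cells in S phase or division were expressed, with sums of 109, 123 and 126 FPKM and 1 past the rule at either dose, Mcm5, a subunit of the replicative helicase, at 3.93, 16.6 and 14.3 FPKM. Median log2 ratios of these 10 to control were 0.34 and 0.32, against 0.17 and 0.08 for all expressed genes. The part of these marker genes in the histone values was not tested. In bulk RNA such as this, fewer cells of a kind and less RNA per cell cannot be told apart.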

How the data were processed

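Oocyte RNA was sequenced in 3 libraries, 1 per group, grouped by the exposure label. Each library has 1 deposited table, whose values are FPKM per the file headers. HISAT2, StringTie and the build mm10 are named in the submitters' processing notes; versions, annotation, the strand setting and how RNA was selected are not stated in those sources. Rows were joined by identifier. Tables left out rows, and all 2088 rows absent from the control table were at 0 at the low dose, so an absent row was taken as 0. A set of 61 identifiers with conflicting names, none of them histone genes, was left out. Rows without a gene name held 15.4, 21.9 and 19.3% of FPKM and were not used.

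FPKM were summed per gene name (Python 3.11.15, pandas 2.3.3). No count test was run, since FPKM are not counts. The FPKM worth of 1 read over 1 kb was estimated from the most crowded low values of genes with 1 annotated transcript (0.0288, 0.0359 and 0.0318); by this estimate the control library was the deepest and the low dose library the shallowest. That values are whole multiples of it was not tested, and read numbers use the longest transcript. The rule of size and the scalings were checked on simulated data. Sequences came from GENCODE M21 transcripts and RefSeq promoters (GRCm38.p6, matched through RefSeq synonyms). Windows of 50 bases were compared with all annotated transcripts on both strands. Named genes were members with a mean of at least 5 FPKM, or of at least 1 FPKM and past the rule, plus, from each of the lists of histone supply and chaperone genes, the 4 largest ratios per pair of libraries. Members and lists were chosen with earlier results of these data known. Alternatives were other pseudocounts, filters, thresholds and scalings, the largest row per name and rows in all 3 tables. Leaving out Hist1h2bc, H1foo or members with shared sequence was chosen after seeing the data.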

Additional observations from a re-analysis of the deposited data

How the results depend on the processing

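No paired analysis was possible because each group has 1 library and no test was run. Of 96 values of the counts and sums under an alternative, 5 changed sign and 19 moved by over 1.5 times or, for 1 sum, across a log2 ratio of 1 in size, while 72 did neither. With a pseudocount of 5 FPKM the low dose comparison gave 1 gene higher and 3 lower, the high dose comparison 2 lower, and the doses 5 higher and 3 lower, while a pseudocount of 0.1 FPKM gave 8 lower at the high dose. A mean of at least 5 FPKM gave 3 lower at the low dose, 1 higher and 1 lower at the high dose and 3 higher and 2 lower between the doses. Rows in all 3 tables gave 2 higher at the high dose, and a log2 rule of 2 gave 2 higher at the low dose. Members with under 50% of windows shared gave 2 higher at the low dose and 1 lower both at the high dose and between the doses, with a log2 ratio of the clustered sums between the doses of 0.63. The log2 ratio of the clustered sums to control at the low dose was -0.0483 under trimmed mean and -0.0306 under median ratio scaling, against 0.18. Between the doses it was -0.0416 with rows in all 3 tables, against 0.04. Without Hist1h2bc it was -0.52 for the high dose against control and -0.69 between the doses. For genes outside the clusters the log2 ratio at the low dose was -1.01 under trimmed mean scaling and -0.11 without H1foo. No ratio of a single expressed gene past the rule changed sign. Fewer genes or larger pseudocounts lower the counts by construction; the cause of the other shifts was not tested. With 1 library per group depth bounds counting error only.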

Other observations

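Histone genes outside the name rule also had rows, chosen here after their values were seen. H3f3c, a retrogene relative of H3.3, was listed or taken as 0 in control and at the low dose and reached 7.11 FPKM at the high dose. H3f3a-ps2, a pseudogene of H3f3a, was at 0 in control and at 4.89 and 2.87 FPKM in the exposed libraries, and H3f3a-ps1 was at 1.54, 1.21 and 1.21 FPKM. H3f3c was thus above 0 in the high dose library alone, as were the members H2afx and Hist1h4a. So were the members Hist1h2ak, Hist1h2ao, Hist1h4n and Hist2h2ab, at 0.08, 0.82, 0.33 and 0.27 FPKM there. Across all genes, the 2088 rows absent from the control table were at 0 at the low dose. The share of all genes with this pattern was not counted, so it is not shown to be particular to histone genes.

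Clustered genes with more than 100 annotated bases after the stem-loop held 58.8, 46.2 and 37.4% of the clustered FPKM in control, low and high dose, those with at most 100 bases 22.3, 34.2 and 7.97%, and those without a match 18.8, 19.6 and 54.7%. The last share at the high dose includes Hist1h2bc.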
